A study of Homo sapiens with 6 samples.

Results

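The FOXO transcription factors and a set of genes that PI3K signalling holds down were followed in a BCR-ABL-driven mouse cell line, BaF3-T315I, treated with the histone deacetylase inhibitor I13. The set holds 9 mouse genes, Foxo1, Foxo3, Foxo4, Pik3ip1, Irs2, Ccng2, Sesn3, Txnip and Bcl6, chosen by name, and each of them had a row among the 22413 genes of the deposited table. BaF3 is a murine pro-B line that depends on IL-3, and BaF3-T315I cells are BaF3 cells stably transfected with BCR-ABL carrying the T315I mutation, which makes the kinase resistant to imatinib. The transgene is therefore present in both groups. There were 3 control samples, for which the labels name no vehicle or time, and 3 samples treated with 1.1 µM of I13 for 48 h. The labels call the organism human and the submitters' processing notes name the hg38 build, whereas every row of the table is a mouse Ensembl gene. The values are used here as mouse genes.

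FOXO factors are forkhead proteins that switch on genes for cell cycle arrest, stress defence and nutrient sensing. When PI3K is active, as it is downstream of BCR-ABL, AKT phosphorylates the FOXO proteins, 14-3-3 proteins bind them and they leave the nucleus, so their target genes are low. When PI3K signalling weakens, FOXO proteins return to the nucleus and the targets rise. The activity of a FOXO protein is thus set largely by its phosphorylation and location, which mRNA levels do not measure.

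Expression was given as FPKM, the fragments on a gene scaled to its length and to the depth of the library. Whole fragments were recovered from these values, and the library totals behind the 6 samples lay between 16762119 and 17722950 fragments. Of the pro-B and IL-3 receptor markers, Csf2rb, Csf2rb2 and Cd79a were the most abundant, and Ptprc and Il3ra were also expressed, whereas Ebf1, Pax5, Vpreb1 and Igll1 had a mean under 0.5 FPKM. Csf2rb and Csf2rb2 are near-identical copies, and how fragments were shared between them is uncertain. The 10 pro-B and IL-3 receptor markers analysed summed to values that ran from 472 to 929 FPKM in the control and from 951 to 1699 FPKM after I13. The T cell markers analysed summed to at most 0.541 FPKM in any sample. The macrophage markers, mainly Adgre1 with Cd68 and Lyz2, summed to 23.0 to 46.4 FPKM in the control and 53.0 to 87.2 FPKM after I13, although Csf1r and Mrc1 were near 0. Adgre1 was among the genes called with the replicate block, a fit described below, and so were Csf2rb, Csf2rb2 and the globin gene Hba-a1. The erythroid markers summed to 1.02 to 1.41 FPKM in the control and 2.65 to 8.50 FPKM after I13. The highest sum was that of I13 replicate 2, where Hbb-bt was at 4.58 FPKM and Hba-a1 at 2.94 FPKM, against 0.161 and 0.0813 FPKM of Hbb-bt in I13 replicates 1 and 3. Without the pair of replicate 2 or 3 none of Adgre1, Csf2rb, Csf2rb2 and Hba-a1 was called with the block, nor was any other gene tested. Without the pair of replicate 1 Hba-a1 was not called. These shifts moved with the treatment as the changes below did, and their part in those changes was not tested. In bulk RNA, fewer cells of a type and less RNA per cell cannot be told apart.

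Txnip was the most abundant of the 9 genes in both groups and, of the 6 tested, moved the most on the log2 scale. It encodes the thioredoxin-interacting protein, an arrestin-like protein that binds thioredoxin and restrains glucose uptake. Foxo3 and Foxo4 came next at similar levels, followed by Ccng2, Irs2, Pik3ip1 and Sesn3, while Foxo1 and Bcl6 were at or near 0. FPKM are per length, so these levels are set side by side. The order of genes at similar levels, such as Foxo4 and Foxo3, rests on the gene lengths used, 3485 and 7571. The annotation behind these lengths is not given, and the ranges below show the spread between samples only. In the control the ranges of neighbouring genes in this order, with Foxo4 above Foxo3, did not overlap down to Sesn3. After I13 the ranges of Foxo3 and Foxo4 overlapped, and so did those of Ccng2 and Irs2.

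**Figure D1:**
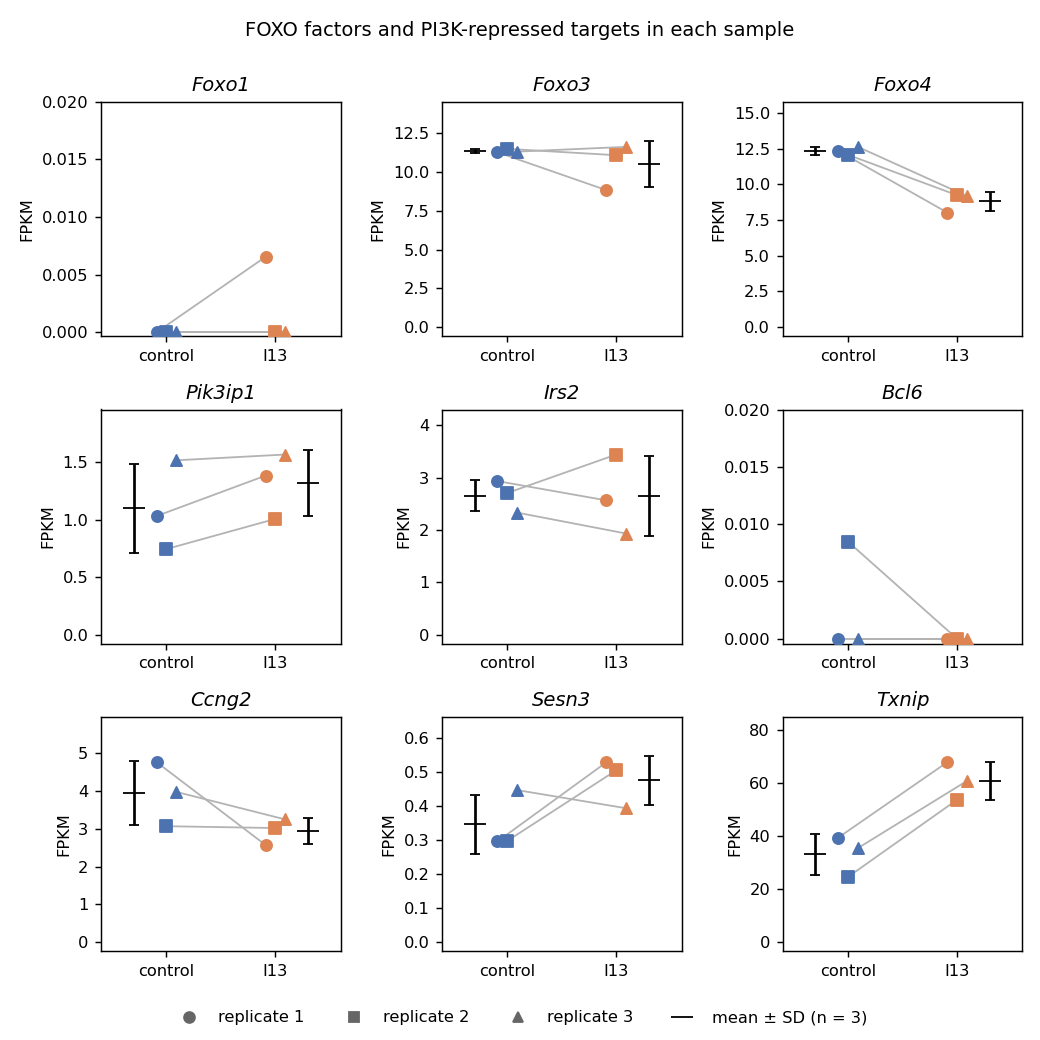
FPKM (linear axes that include 0) of the 9 genes in control and I13 samples. Symbols mark the replicate number, grey lines join samples with the same number, and black bars give the mean ± SD (n = 3), left out for Foxo1 and Bcl6, which had a value above 0 in a single sample each. The 3 I13 samples lie above all controls for Txnip (53.6 to 67.7 against 24.6 to 39.4) and below all controls for Foxo4 (8.03 to 9.24 against 12.1 to 12.6).

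Foxo3, Foxo4 and Foxo1 encode the FOXO factors themselves. Values are given in the order of replicates 1, 2 and 3. Foxo3 was at 11.3, 11.5 and 11.3 FPKM in the 3 controls and at 8.84, 11.1 and 11.6 FPKM in the 3 I13 samples. The groups overlapped, and I13 replicate 1 was the lowest sample. The log2 fold change was -0.12, with a standard error of 0.12 (limma, adjusted p = 0.629) and a 95% interval from -0.41 to 0.17. Without I13 replicate 1 it was -0.0012.

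Foxo4 was at 12.4, 12.1 and 12.6 FPKM in the 3 controls and at 8.03, 9.24 and 9.18 FPKM in the 3 I13 samples. Every I13 sample lay below every control, and the spread within each group was small. From 12.4 ± 0.280 to 8.82 ± 0.685 FPKM (SD, n = 3 each), the log2 fold change was -0.48, with a standard error of 0.10 (limma, adjusted p = 0.109) and a 95% interval from -0.71 to -0.26. This missed the threshold on the adjusted p, and the size lay under the fold change threshold of 0.58. With the replicate number as a block, the adjusted p from limma was 0.0522. In voom on recovered fragments, again blocked, it was 0.0156, still with a log2 fold change of -0.49.

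The balance of Foxo4 and Foxo3 is a measure chosen after their values were seen. It restates the lower Foxo4 values and is given with no test. In the control Foxo4 made up 52.3%, 51.2% and 52.7% of the summed FPKM of both genes, and after I13 it made up 47.6%, 45.5% and 44.1%. The sum itself was between 23.6 and 24.0 FPKM in the control and between 16.9 and 20.8 FPKM after I13.

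Foxo1 had 1 fragment in I13 replicate 1 (0.00655 FPKM) and 0 in the other samples. A count of 0 in a library allows up to 3 fragments, or 0.0195 to 0.0207 FPKM for this gene, where the single value is taken to be 1 fragment. Foxo1 was therefore not detectable above that level at this depth, and the FOXO mRNA measured here was that of Foxo3 and Foxo4. Floors of this kind cover counting error only. Foxo6, the remaining member of the family, had no row under that name in the deposited table and so was not analysed here.

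Pik3ip1 and Irs2 act on the PI3K pathway itself. Pik3ip1 encodes a transmembrane protein that binds and inhibits PI3K. It was at 1.03, 0.743 and 1.51 FPKM in the 3 controls and at 1.38, 1.01 and 1.56 FPKM in the 3 I13 samples. The groups overlapped, yet each I13 sample was higher than the control with the same number, and replicate 2 was the lowest and replicate 3 the highest in both groups. The log2 fold change was 0.27, with a standard error of 0.30 (limma, adjusted p = 0.661), and 56 to 117 fragments stood behind each value. It was 0.05 without control replicate 2 and 0.52 without control replicate 3.

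Irs2, the adaptor that links the insulin and IGF1 receptors and cytokine receptors to PI3K, was at 2.94, 2.71 and 2.33 FPKM in the 3 controls and at 2.57, 3.44 and 1.93 FPKM in the 3 I13 samples. The I13 samples spanned the whole range of the controls. The log2 fold change was -0.04, with a standard error of 0.22 (limma, adjusted p = 0.946), and its 95% interval, from -0.55 to 0.48, lay within the fold change threshold on both sides. The sign turned without control replicate 1 (0.03) and without I13 replicate 3 (0.16). Irs1, its closest relative, had no row under that name in the deposited table and so was not analysed here.

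Among the effector targets, Ccng2 encodes cyclin G2, an atypical cyclin that slows the cell cycle. It was at 4.76, 3.07 and 3.97 FPKM in the 3 controls and at 2.57, 3.02 and 3.24 FPKM in the 3 I13 samples. Control replicate 2 lay within the range of the I13 samples, and each I13 sample was below its same-numbered control, by 0.86, 0.02 and 0.28 on the log2 scale. The log2 fold change was -0.39, with a standard error of 0.19 (limma, adjusted p = 0.309).

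Sesn3 encodes sestrin 3, a stress-induced protein that restrains mTORC1. It was at 0.296, 0.297 and 0.446 FPKM in the 3 controls and at 0.528, 0.504 and 0.393 FPKM in the 3 I13 samples, so I13 replicate 3 was within the control range. Its mean of 0.411 FPKM lay under the filter of 0.5 and it was not tested with the other genes. With no filter the log2 fold change was 0.37, with a standard error of 0.29 (limma, adjusted p = 0.669). The level rested on 80 to 142 fragments per library.

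Bcl6, the gene of a transcriptional repressor of germinal centre B cells, had 1 fragment in control replicate 2 (0.00846 FPKM) and 0 in the other samples. The count of 0 allows up to 0.0253 to 0.0267 FPKM for this gene, where the single value is again taken to be 1 fragment. No fold change is given for Bcl6 or Foxo1.

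Txnip was at 39.4, 24.6 and 35.4 FPKM in the 3 controls and at 67.7, 53.6 and 60.7 FPKM in the 3 I13 samples. Every I13 sample lay above every control, and the order of the replicate numbers was the same in both groups, with replicate 1 highest and replicate 2 lowest. From 33.1 ± 7.64 to 60.7 ± 7.06 FPKM (SD, n = 3 each) it was 1.83 times as high after I13. The log2 fold change was 0.89, with a standard error of 0.18 (limma, adjusted p = 0.109), and leaving out any 1 sample moved it between 0.69 and 1.03. With the replicate block Txnip passed both thresholds, with a standard error of 0.09 and an adjusted p of 0.0322 from limma. Its log2 fold change, above 0.58 in both fits, was the same with the block. The same-numbered differences were 0.78, 1.12 and 0.77. When a numbered pair was left out, the adjusted p from limma with the block was 0.0481 for replicate 1, 0.227 for replicate 2 and 0.0788 for replicate 3. Without the pair of replicate 2 or 3 the call was lost, but 0 of all genes tested were called there. The loss is therefore not particular to Txnip, whose log2 fold change was 0.78 and 0.95 in those fits.

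The comparison was made with limma on log2(FPKM + 0.1) over the 12163 genes with a mean of at least 0.5 FPKM, and calls needed an adjusted p under 0.05 together with a log2 fold change of 0.58 or more in either direction. Foxo3, Foxo4, Pik3ip1, Irs2, Ccng2 and Txnip entered it. None of the 6 was called without the block, where 0.0411% of all genes tested were (0.0329% higher and 0.00822% lower), and none was called by voom without the block. Foxo4 and Txnip had an unadjusted p below 0.05, as had 18.6% of all genes tested. They were also the genes whose groups did not overlap, which held for 25.2% of all genes tested. With the block Txnip was called, as were 1.89% of all genes tested (1.36% higher and 0.526% lower). It was also the one member with an adjusted p under 0.05 in that fit, which 2.99% of all genes tested had. With voom and the block Txnip was again called, as were 4.14% of all genes tested, and Foxo4 passed on the adjusted p alone, as did 12.4%. The median log2 fold change of the 6 was -0.08, against -0.005 over all genes tested, and 4 of the 6 were lower and 2 higher after I13. The labels do not say that the 3 samples of a group came from separate cultures, so the p-values measure the spread between these samples, which may be technical.

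**Figure D2:**
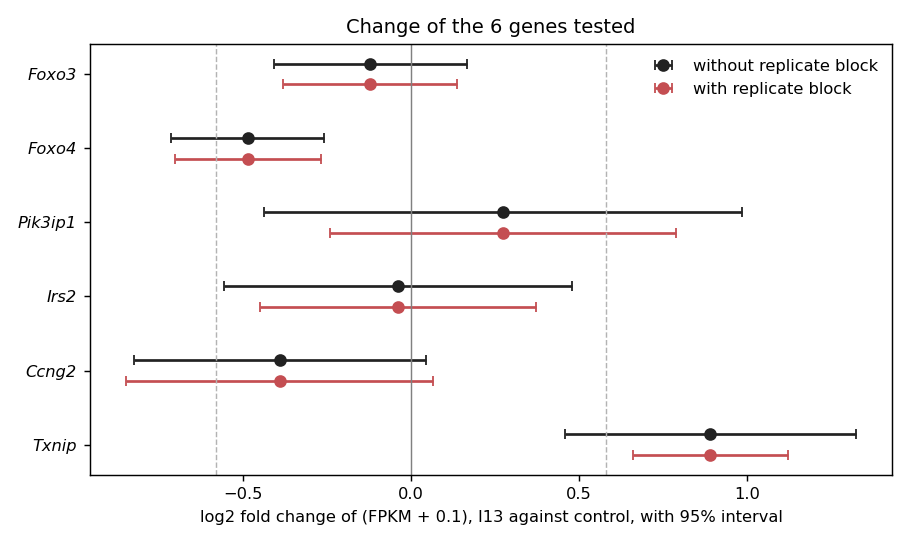
Log2 fold change of (FPKM + 0.1), I13 against control, of the 6 genes tested, with 95% intervals from limma without (black) and with (red) the replicate block; dashed lines mark ±0.58. The intervals of Foxo4 (-0.71 to -0.26) and Txnip (0.46 to 1.32) exclude 0 without the block, and the block narrows that of Txnip to 0.66 to 1.12.

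The genes differed in how far the condition or the replicate number went with their spread. Of the sum of squares of log2(FPKM + 0.1) over the 6 samples, the condition held 92.7% for Foxo4 and 79.5% for Txnip, against a median of 25.9% over all genes tested. For Pik3ip1 the replicate number held 79.2% and for Irs2 71.4%, against a median of 42.2%, and the condition held 15.4% and 0.545%. Ccng2 and Foxo3 lay between these, with 47.9% and 19.8% on the condition. Sesn3 had 49.7% on the condition and 48.6% left over by both. The condition has fewer degrees of freedom than the replicate number or the part left over, so with no effect its share is expected to be smaller. These shares describe the 6 samples and carry no test of their own.

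**Figure D3:**
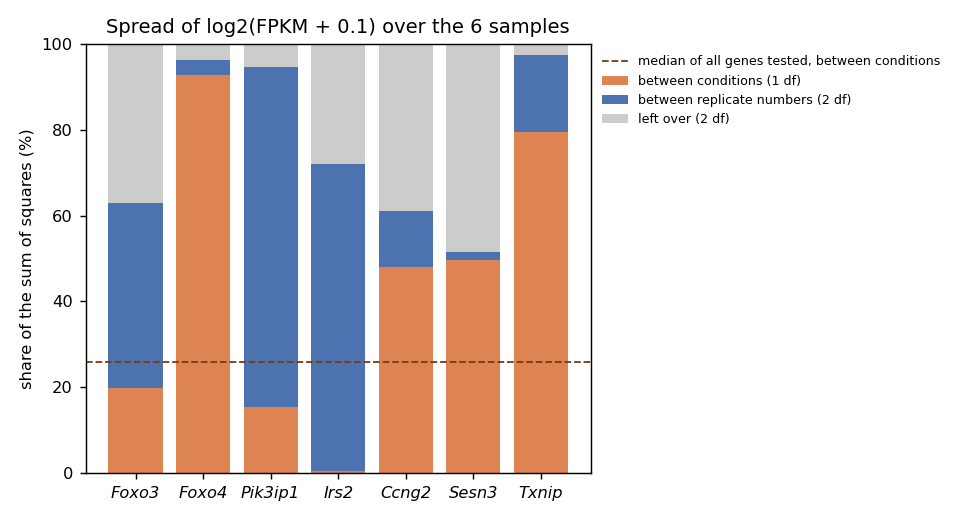
Share (%) of the sum of squares of log2(FPKM + 0.1) over the 6 samples that lay between the conditions, between the replicate numbers and in neither, for the 7 genes detected in every sample. The condition holds the largest share for Foxo4, Txnip, Ccng2 and Sesn3, and the replicate number for Pik3ip1, Irs2 and Foxo3. The replicate share of Foxo3 (43.0%) is near the median over all genes tested (42.2%). The condition has the fewest degrees of freedom. The dashed line is the median over all genes tested for the condition (25.9%).

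By the smallest root mean square difference of their centred log2 values over the 6 samples, among 10869 genes with a mean of at least 1 FPKM, the nearest genes to Txnip were Aim1 (0.070) and 9130008F23Rik (0.082). Those nearest to Foxo4 were Med24 (0.025) and Ciz1 (0.040), and those nearest to Foxo3 were Rell1 (0.030) and Slc25a26 (0.039). For Pik3ip1 they were Emilin1 (0.051) and Nlgn2 (0.063), for Irs2 6330562C20Rik (0.064) and Hnrnph3 (0.077), and for Ccng2 Hexim2 (0.066) and Sema6b (0.068). These matches are a description over 6 samples.

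Other genes that FOXO factors are known to control were taken as a list of 37, of which 33 were analysed and 25 tested. Of the 25, 17 were higher and 8 lower after I13, with a median log2 fold change of 0.13. Over all genes tested 5989 were higher and 6174 lower, with a median of -0.005. The list was not split into genes that FOXO factors raise and genes that they lower, and its direction was not tested. At an unadjusted p below 0.05 were 2 of them, 1 in each direction, against 18.6% of all genes tested, and none was called without the block. With the block 1 was called, where 1.89% of all genes tested were. It was Cited2, the gene of a CBP/p300-binding coregulator. Cited2 rose in that fit from 148 ± 20.1 to 235 ± 31.7 FPKM (SD, n = 3 each), or by a log2 fold change of 0.66 (adjusted p = 0.0384 from limma with the block and 0.109 without it). The groups did not overlap for Cited2. Without the pair of replicate 2 or 3, its adjusted p from limma with the block was 0.291 or 0.0836 and the call was lost. In those fits 0 of all genes tested were called. Among the abundant genes of the list, Prdx3, a mitochondrial peroxiredoxin, was at 152 ± 15.3 and 142 ± 14.5 FPKM (SD, n = 3 each), and Cdkn1a, which encodes the CDK inhibitor p21, was at 124 ± 23.3 and 148 ± 29.9 FPKM (SD, n = 3 each). Their adjusted p values from limma were 0.690 and 0.504.

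Of 40 genes of the pathway from PI3K to AKT and mTOR, 39 were analysed and 38 tested, with 16 higher, 22 lower and a median log2 fold change of -0.05. At an unadjusted p below 0.05 were 8 of them, 1 higher and 7 lower, against 7.79% and 10.8% of all genes tested in these directions. None was called without the block. With the block 1 was called, where 1.89% of all genes tested were. It was Pik3ap1, the gene of the adaptor BCAP that brings PI3K to B cell receptors. Pik3ap1 rose in that fit from 11.6 ± 3.19 to 19.0 ± 1.24 FPKM (SD, n = 3 each), or by a log2 fold change of 0.73 (adjusted p = 0.0478 from limma with the block and 0.126 without it). Leaving out the pair of replicate 1, 2 or 3 ended this call, with adjusted p values of Pik3ap1 from limma with the block of 0.102, 0.311 and 0.0788. Without the pair of replicate 2 or 3, 0 of all genes tested were called. The abundant genes of the list were Ppp2r1a, a scaffold subunit of the phosphatase PP2A, at 86.1 ± 4.24 and 73.8 ± 4.69 FPKM, Akt1 at 55.5 ± 2.10 and 51.1 ± 2.73 FPKM, and Pik3cd, the leukocyte PI3K catalytic subunit, at 53.7 ± 6.18 and 41.3 ± 6.15 FPKM (SD, n = 3 each, control and I13). Their log2 fold changes were -0.22, -0.12 and -0.38, with adjusted p values from limma of 0.237, 0.474 and 0.214.

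All 26 genes of the list of FOXO modifiers and carriers were tested, with 16 higher, 10 lower and a median log2 fold change of 0.05. At an unadjusted p below 0.05 were 7 of them, 3 higher and 4 lower, against 18.6% of all genes tested (7.79% higher and 10.8% lower). With the block 1 was called, where 1.89% of all genes tested were. It was Mdm2, a ubiquitin ligase for p53 and FOXO proteins, which rose in that fit with a log2 fold change of 0.72 (adjusted p = 0.0322 from limma with the block and 0.0989 without it). Without the pair of replicate 2 or 3, the adjusted p of Mdm2 from limma with the block was 0.289 or 0.0788 and the call was lost. In those fits 0 of all genes tested were called. Among the abundant genes, Ywhae and Ywhaz, which encode 14-3-3 proteins, were at 304 ± 30.5 and 262 ± 15.1 FPKM and at 141 ± 8.58 and 152 ± 1.90 FPKM, and Ctnnb1, which encodes β-catenin, was at 83.1 ± 14.4 and 94.4 ± 12.2 FPKM (SD, n = 3 each). Their adjusted p values from limma were 0.317, 0.496 and 0.539.

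Of the list of paralogs and partners of the 9 genes, 19 are reported here, 14 of them analysed and 13 tested, with 8 higher, 5 lower and a median log2 fold change of 0.05. Ccng1, the paralog of Ccng2 and a known p53 target, was at 97.1 ± 10.9 and 140.0 ± 21.8 FPKM (SD, n = 3 each). Its log2 fold change of 0.52 had an adjusted p of 0.138 from limma, and 0.0591 with the block, and lay on the other side of 0 from that of Ccng2. The difference between the paralogs was not tested. Sesn1 was at 8.64 ± 0.868 and 9.82 ± 0.158 FPKM and Sesn2 at 41.1 ± 19.6 and 26.2 ± 4.61 FPKM (SD, n = 3 each), with adjusted p values from limma of 0.378 and 0.364. Both were thus far more abundant than Sesn3. Arrdc3, an arrestin related to Txnip, was at 2.18 ± 0.306 and 2.67 ± 0.825 FPKM (SD, n = 3 each, adjusted p = 0.595 from limma). Txn1, the thioredoxin that the Txnip protein binds, was at 278 ± 18.7 and 310 ± 15.7 FPKM, and Txnrd1, its reductase, at 36.1 ± 1.96 and 39.9 ± 3.18 FPKM (SD, n = 3 each), with log2 fold changes of 0.16 and 0.14 and adjusted p values from limma of 0.380 and 0.450.

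**Figure D4:**
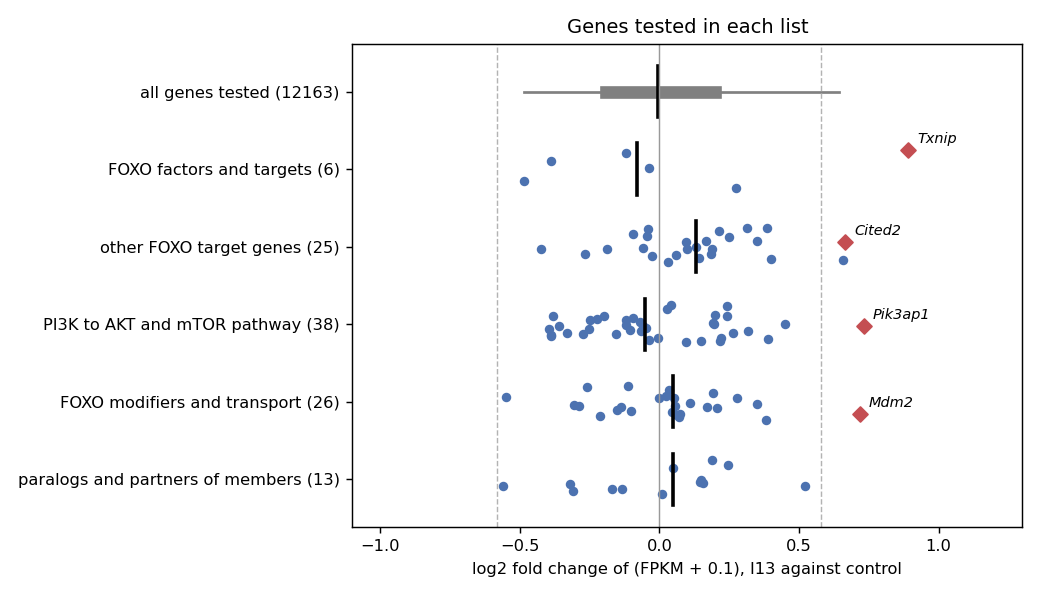
Log2 fold change of (FPKM + 0.1), I13 against control, of each gene tested in 5 lists (numbers of genes in brackets), with black bars at the medians; red diamonds mark genes called with the replicate block and dashed lines ±0.58. The grey line and box above span the 5th to 95th and the 25th to 75th percentiles of all genes tested. The medians lie between -0.08 and 0.13, and Txnip, Cited2, Pik3ap1 and Mdm2 are the genes called among those plotted.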

How the data were processed

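The authors sequenced mRNA from TruSeq stranded libraries and deposited FPKM values, without pooling replicates. Per the labels, Trimmomatic, HISAT2, Cufflinks and HTSeq were used, with hg38 named as the build. Versions, the annotation and the strand setting of the counting are not given in the sources used here. Samples were grouped by their titles, and 0 columns of values had no sample.

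Whole fragments and gene lengths were recovered from the FPKM of 22413 of 22413 genes within 0.03 fragments. Genes were tested with limma 3.58.1 (R 4.3.3), using log2(FPKM + 0.1) and a mean-variance trend in eBayes, among genes with a mean of at least 0.5 FPKM, with Benjamini-Hochberg adjustment over all of them. This scale understates changes of low genes. limma was also run on simulated data, with an outcome not given here. Those data were drawn without an effect of the replicate number, so they do not bear on the use of the block. Sums and figures were made in Python 3.11.15 with pandas 2.3.3 and matplotlib 3.10.9.

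The deviations from the group means of same-numbered samples correlated across genes at 0.15, 0.30 and 0.22, and those of other pairs at -0.26 to 0.05. All 3 exceeded 0.1. The numbers were therefore treated as pairs in an alternative fit that took the replicate number as a block. The pairing comes from the numbers in the labels and this check. Deviations within a group of 3 sum to 0, so the lower correlations of the other pairs follow in part from those of same-numbered samples. The check also used the same values as the fit, so it is no independent evidence that the samples were paired. The alternatives were other pseudocounts, filters, scalings and eBayes settings, treat, the block, voom on recovered fragments and leaving out samples.

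The members and lists were chosen with earlier results of these data known. By rule, the genes named are the 9 members, their nearest genes over the samples, genes of the lists called in either limma fit, the 3 most abundant genes of each list and the paralogs Foxo6, Irs1, Ccng1, Sesn1, Sesn2, Arrdc3, Arrdc4 and Bcl6b. Of these paralogs, Foxo6, Irs1, Arrdc4 and Bcl6b had no row under those names and were not analysed here. Genes named outside this rule, in the closing observations and for voom with the block (Klf6), were chosen after their values were seen. A result of the list of paralogs and partners is not reported here, and its counts leave it out. No mouse sequences are shown, since the reference used here is human.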

Additional observations from a re-analysis of the deposited data

How the results depend on the processing

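Without the replicate block 4 genes were higher and 1 lower among all genes tested, and 0 of the FOXO factors and targets, of the PI3K pathway genes and of the other FOXO targets were called. With the replicate block these counts were 166, 64, 1, 1 and 1, and with voom and the replicate block 375, 128, 1, 1 and 2 (Cited2 and Klf6). With the block and without both samples of replicate 1 they were 78, 5, 1, 0 and 1, and without those of replicate 2 or 3 they were 0 (limma gave 1638 and 3160 genes an unadjusted p under 0.05). A pseudocount of 0.01, median-ratio scaling and quantile normalization each gave 2 higher and 0 lower genes, eBayes without a trend and no filter each gave 3 lower genes, and treat gave 0 and 0 (118 genes had an unadjusted p under 0.05). Leaving out any 1 sample without the block gave 0 to 0 calls of every kind in limma, where 1478 to 2482 genes had an unadjusted p under 0.05. Fewer samples were fitted there. The cause of this loss of calls and of the other shifts was not tested. Txnip had a log2 fold change between 0.69 and 1.03 in the 23 alternatives and was called in 3 of them, all with the block (0.892, 0.891 with voom, and 0.947 without replicate 1). Foxo4 lay between -0.54 and -0.42, Foxo3 between -0.20 and -0.0012, Ccng2 between -0.57 and -0.15 and Pik3ip1 between 0.05 and 0.52, all with the same sign and uncalled in every alternative. Irs2 lay between -0.24 and 0.16 and was positive without control replicate 1 (0.035), without I13 replicate 3 (0.162), and with the block without replicate 1 (0.038) or replicate 3 (0.074). The block changed no other call among the 6 genes tested. For Pik3ip1 and Sesn3, 56 and 80 fragments in the lowest library gave counting errors of 13.4% and 11.2%. The spread between samples was larger. The SD was 35.5% of the mean in the control and 21.6% after I13 for Pik3ip1, and 24.9% and 15.2% for Sesn3.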

Other observations

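Among the genes of the pathway from PI3K to AKT and mTOR, 8 of the 38 tested had lower values in every I13 sample than in every control, against 15.4% of all genes tested. Higher values in every I13 sample were found for 1 of the 38, against 9.82% of all genes tested, and in both directions together 23.7% of the list did not overlap, against 25.2% of all genes tested. The genes named here were chosen after their values were seen. Rptor, which encodes the mTORC1 subunit raptor, was at 6.39, 6.47 and 6.34 FPKM in the 3 controls and at 4.72, 4.65 and 5.16 FPKM in the 3 I13 samples. Its log2 fold change was -0.40 (adjusted p = 0.123 from limma, and 0.0776 with the replicate block). Tsc2, the gene of tuberin, an inhibitor of mTORC1, had a log2 fold change of -0.33, Akt2 one of -0.36 and Mtor one of -0.27, and none of these was called in either fit.

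Among the FOXO target genes under the filter, Tnfsf10, which encodes the death ligand TRAIL, had 0, 3 and 2 fragments in the 3 controls and 17, 9 and 7 fragments in the 3 I13 samples. It was under the filter, at a mean of 0.0180 FPKM in the control and 0.120 FPKM after I13. These means lie near or below the 0.1 FPKM added before the log. With no filter its log2 fold change was 0.88 (adjusted p = 0.239 from limma), a size that depends on that addition. The control counts lie at or under the 3 fragments that a count of 0 allows. Prmt1, an arginine methyltransferase with FOXO1 among its substrates, was at 98.3, 93.6 and 77.4 FPKM in the 3 controls and at 59.6, 63.5 and 59.9 FPKM in the 3 I13 samples. Its adjusted p from limma was 0.109 without the block and 0.0450 with it, with a log2 fold change of -0.55, under the threshold of 0.58.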
